A study of Oryza sativa with 4 samples.

Results

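The proteins described here fold new proteins in the endoplasmic reticulum (ER), together with the transcription factor that serves the ER's stress response. They are 9 loci chosen by identifier and description: 1 lumenal binding protein, 3 lectin chaperones (2 calreticulins and 1 calnexin), 4 protein disulfide isomerases (PDI) and 1 bZIP factor. All 9 were found, as 18 of the 14122 transcripts and 9 of the 10455 genes of the deposited table. The shoots came from wild-type rice (Oryza sativa) that was 2 weeks old. Heat-treated shoots were held in water at 42 °C for 10 min, and control shoots at 22 °C for 10 min, with pots turned upside down in both, so that immersion was shared. Each temperature had 2 ribosome profiling libraries, 4 in all. Ribosome profiling reads out mRNA fragments that ribosomes shield from digestion.

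The table gives 1 score per transcript and temperature, with no header stating its formula, and it is taken to be translational efficiency, the footprints on a message relative to its RNA. That reading comes from the stated purpose of the libraries. All 4 libraries are of ribosome profiling, and the source of the RNA values is not stated. Footprints and RNA were not analysed apart, depth is unknown and the table gives no separate value per replicate, so each difference below is a ratio of 2 pooled scores, with no test and no p-value. The score of a gene is the mean over its transcripts.

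Secreted and membrane proteins enter the ER unfolded. The lumenal binding protein, an HSP70 of the ER, holds exposed hydrophobic stretches. Calnexin, anchored in the membrane, and calreticulin, its soluble relative, hold glycoproteins by their sugars. Disulfide isomerases make and reshuffle bonds between cysteines. When unfolded proteins gather, the unfolded protein response is switched on, in plants partly through a bZIP factor whose mRNA is spliced in the cytoplasm by the kinase and nuclease IRE1, and genes of folding proteins are induced. In rice these proteins are best known from the endosperm, where storage proteins are folded in bulk.

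The 9 genes did not move as a block. A PDI-like gene stood 2.92-fold higher at 42 °C, and calnexin stood 7.93-fold lower. The bZIP factor, the lumenal binding protein and another PDI gene were 1.78-fold, 1.71-fold and 1.65-fold higher, and 1 calreticulin was 1.33-fold higher. A PDI gene stood 3.44-fold lower and the other calreticulin 1.68-fold lower, and 1 PDI gene had nearly equal scores.

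The lumenal binding protein gene OS02T0115900, described as the endosperm form, had a score of 0.161 at 42 °C and 0.0940 at 22 °C, a log2 ratio of 0.78. Its transcript 01 had 0.165 at 42 °C and 0.0747 at 22 °C, transcript 02 had 0.154 and 0.0952, and transcript 03 had 0.164 and 0.112, each pair with 42 °C first. All 3 transcripts were therefore higher at 42 °C, with log2 ratios between 0.55 and 1.14, and the scores at 42 °C lay closer together than those at 22 °C. Among genes above 0 at 1 or both temperatures, the gene stood above 65.8% of them at 42 °C and above 52.0% at 22 °C.

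The lectins were split. The calreticulin gene OS03T0832200, with 1 transcript, had 0.246 at 42 °C and 0.185 at 22 °C, a log2 ratio of 0.41. The second calreticulin gene, OS07T0246200, had 0.0361 at 42 °C and 0.0605 at 22 °C, a log2 ratio of -0.75. The genes also differed in level, the first scoring higher than the second at both temperatures.

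The transcripts of OS07T0246200 went both ways. Transcript 01 had 0.0529 at 42 °C and 0.0471 at 22 °C. Transcript 02 had 0.0315 at 42 °C and 0.0675 at 22 °C, and transcript 03 had 0.0240 at 42 °C and 0.0670 at 22 °C. The lower score of the locus thus came from transcripts 02 and 03, and with transcript 01 alone the log2 ratio was 0.17. It was the only 1 of the 6 member genes with several transcripts whose transcripts pointed in opposite directions. Among all genes with at least 2 transcripts above 0 at both temperatures, 631 of 2290 (27.6%) did so.

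Calnexin, OS04T0402100, had the largest ratio of the 9 genes in either direction. Its score was 0.00854 at 42 °C and 0.0678 at 22 °C, a log2 ratio of -2.99. Both of its transcripts were lower at 42 °C, transcript 01 with 0.0103 against 0.0618 at 22 °C and transcript 02 with 0.00683 against 0.0738 at 22 °C. Calnexin stood above 17.1% of genes at 42 °C and above 44.1% at 22 °C, and its log2 ratio was above that of 4.76% of the 9280 genes with a ratio. Its score at 42 °C was the lowest of the 9 genes, so the ratio rests on a small number.

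**Figure D1:**
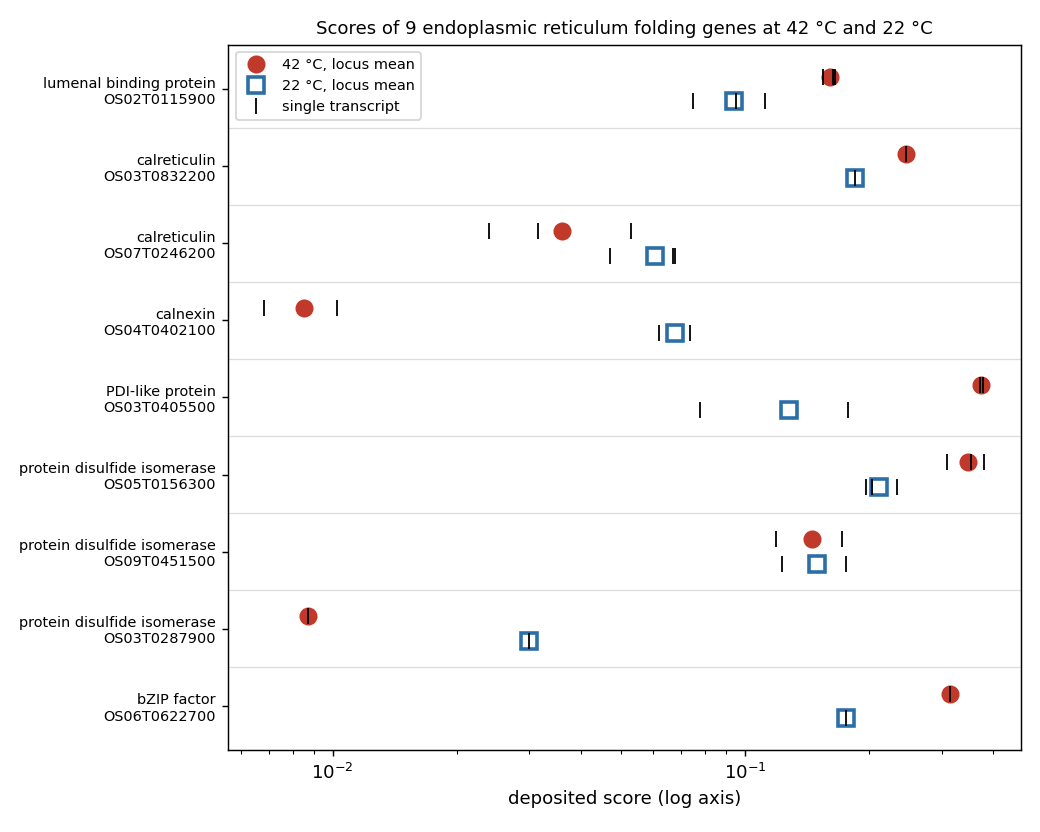
Deposited scores of the 9 genes on a log axis, 42 °C as filled circles above 22 °C as open squares, with each single transcript as a short vertical line. No error bars are drawn, since the table has 1 score per transcript and temperature; calnexin is at 0.00854 at 42 °C and 0.0678 at 22 °C, and the PDI-like gene at 0.374 and 0.128.

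The disulfide isomerases went both ways, with log2 ratios between -1.78 and 1.55. The PDI-like gene OS03T0405500 had 0.374 at 42 °C, the highest of the 9 genes there, and 0.128 at 22 °C, a log2 ratio of 1.55. Transcript 01, described as similar to a PDI-like protein, had 0.377 at 42 °C and 0.178 at 22 °C. Transcript 02, described only as a hypothetical conserved gene, had 0.371 at 42 °C and 0.0780 at 22 °C. Both passed 2-fold, at 2.12-fold and 4.76-fold, and they differed mainly at 22 °C.

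The PDI gene OS05T0156300 had 0.348 at 42 °C and 0.211 at 22 °C, a log2 ratio of 0.72. Its 3 transcripts agreed closely, at 0.309, 0.354 and 0.381 at 42 °C against 0.203, 0.197 and 0.234 at 22 °C, and were 1.52-fold, 1.80-fold and 1.63-fold higher. It was the highest of the 9 genes at 22 °C and the second highest, after the PDI-like gene, at 42 °C.

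The PDI gene OS09T0451500 had 0.145 at 42 °C and 0.149 at 22 °C, a log2 ratio of -0.04. Transcript 01 had 0.172 at 42 °C and 0.176 at 22 °C, and transcript 02, described by a thioredoxin domain, had 0.119 at 42 °C and 0.123 at 22 °C. Both scores of each transcript nearly coincide, and this gene had the ratio closest to 1 of the 9.

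The PDI gene OS03T0287900, with 1 transcript, had 0.00871 at 42 °C and 0.0299 at 22 °C, a log2 ratio of -1.78. It was the lowest of the 9 genes at 22 °C and, beside calnexin, 1 of the 2 under 0.01 at 42 °C. Outside the 9, the words searched found 1 more gene described as a disulfide isomerase, OS11T0199200, which had 0.149 at 42 °C and 0.217 at 22 °C, a log2 ratio of -0.55.

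The bZIP factor OS06T0622700 had 0.314 at 42 °C and 0.176 at 22 °C, a log2 ratio of 0.83. It has 1 row in the table, described by its bZIP-1 domain, and that row does not separate spliced from unspliced forms of the message. It ranked 3 of the 9 genes at both temperatures, counted from the highest. Its ratio was the second largest above 1, after that of the PDI-like gene.

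**Figure D2:**
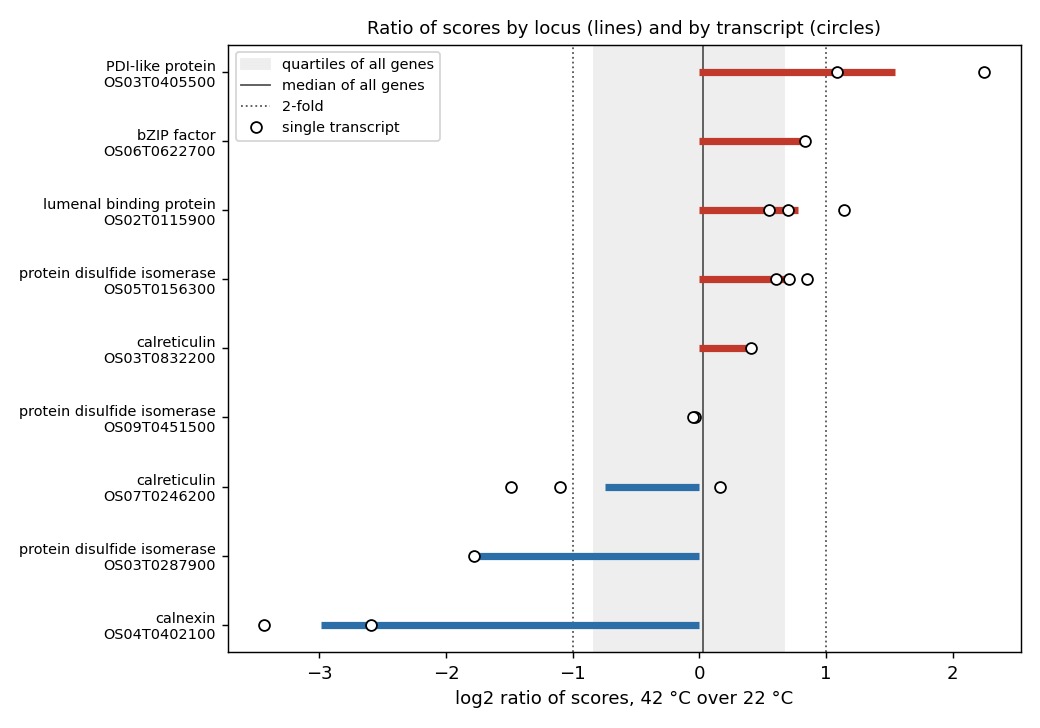
Log2 ratio of scores, 42 °C over 22 °C, as a line per gene from 0, red for higher and blue for lower at 42 °C, with each transcript as an open circle, the 2-fold limits dotted and the quartiles of all genes shaded. Only the PDI-like gene passed 2-fold upwards (1.55), calnexin (-2.99) and the PDI gene OS03T0287900 (-1.78) passed it downwards, and the circles of the calreticulin gene OS07T0246200 lie on both sides of 0.

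A gene was called higher or lower here when its scores differed by at least 2-fold. Of the 9 genes, 1 was called higher and 2 lower, while 5 had a higher and 4 a lower score of any size. Of all 9280 genes above 0 at both temperatures, 16.1% were called higher and 21.6% lower. Of the 5792 genes whose mean over both temperatures lay between the lowest and the highest of the 9 (0.0193 to 0.280), 16.0% were called higher and 22.2% lower. The counts of 1 and 2 among 9 lie near these shares. The median log2 ratio was 0.41 over the 9 genes, 0.19 over the 8 folding proteins without the bZIP factor and 0.03 over all genes. When ratios were centred on genes whose mean score reached 0.2, which shifts every gene alike, the median was 0.14 over the 9 and -0.24 over all genes. It was 0.75 over the 6 members whose mean reached 0.05, against 0.15 over all genes with such a mean. That minimum leaves out calnexin and OS03T0287900, the 2 genes called lower, and OS07T0246200, which also scored lower at 42 °C. Their absence and the larger median thus follow by construction. With 0.1 added to every score, which shrinks ratios of low scores by construction, neither calnexin nor OS03T0287900 was called lower.

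The 3 genes with the lowest scores at 22 °C, which are OS04T0402100, OS07T0246200 and OS03T0287900, were also the 3 lowest at 42 °C, where each scored lower than at 22 °C, with log2 ratios of -2.99, -0.75 and -1.78. Of the other 6 genes, 5 were higher at 42 °C and OS09T0451500 was nearly equal. What part level has in these directions was not tested.

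The scores of the 9 genes were further apart at 42 °C. The highest was 43.8 times the lowest at 42 °C, against 7.06 times at 22 °C. At 42 °C 4 genes stood above 0.2 and 3 under 0.05, against 1 and 1 at 22 °C. Over all genes above 0 at both temperatures, 31.5% stood above 0.2 and 36.4% under 0.05 at 42 °C, against 29.8% and 32.7% at 22 °C. For all genes another measure was taken. Their 90th percentile was 79.2 times the 10th at 42 °C, against 45.8 times at 22 °C, so a wider range at 42 °C was not confined to the folding proteins. The size of the change cannot be compared, since the members' figure uses the extremes of 9 genes. Its lowest value at 42 °C is calnexin's 0.00854.

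**Figure D3:**
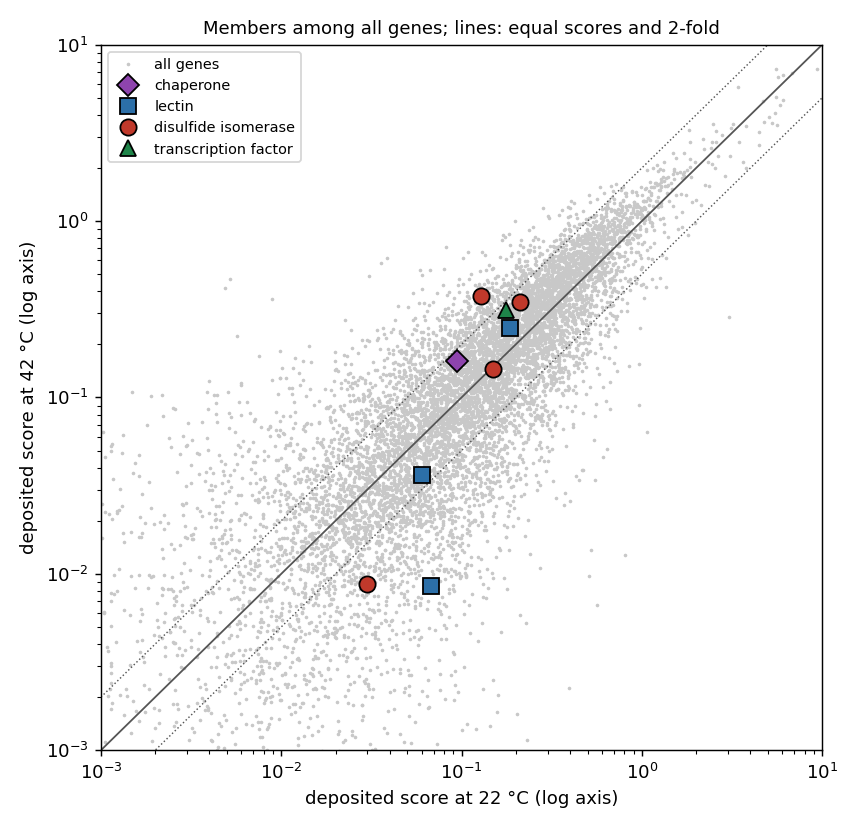
Score at 42 °C against score at 22 °C, both on log axes that start at 0.001, for all genes above 0 at both temperatures (grey) and the 9 members by role, with lines for equal scores and for 2-fold differences. Not drawn are 399 genes under 0.001 at 1 or both temperatures. The PDI-like gene lies above the upper 2-fold line, calnexin and a PDI gene lie below the lower one, and the other 6 members lie between.

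Other genes of the secretory pathway were taken by words in their descriptions or by locus, in 7 lists. Beside the 9 genes, the lists hold 69 genes, of which 4 were 0 at 42 °C only and 1 was 0 at 22 °C only. Over all genes, 480 were 0 at 42 °C only and 234 at 22 °C only. Such genes have no ratio, so the counts and medians leave them out. The other 64 of the 69 were above 0 at both temperatures. Of these 15 were called higher and 12 lower, with a median log2 ratio of 0.22. The shares over all genes, for these counts and those of each list below, were 16.1% called higher and 21.6% lower. Of the 69, 7 have descriptions of some other protein, such as a peroxidase named P24, and without them 12 were called higher and 12 lower of 57, with a median of 0.12.

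Further lectin genes scored low. Of those described as similar to calreticulin-3, a form of the lectin best known from Arabidopsis, OS01T0895600 had 3.58e-05 at 42 °C and 0.0166 at 22 °C, and OS05T0507300 was listed at 0 at 42 °C and at 0.00254 at 22 °C. Both lay under their 22 °C scores, as did calnexin and the calreticulin OS07T0246200, whereas the calreticulin OS03T0832200 scored higher at 42 °C. The gene OS07T0498800, described as a calreticulin interacted protein, had 0.0430 at 42 °C and 0.00719 at 22 °C, 5.98-fold higher. It is 1 of the 7 genes of other kinds. Of the 3 genes of this list beside the members, 2 had a ratio, 1 called higher and 1 lower.

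The list of stress signalling, beside the bZIP factor, had 4 genes, 1 called higher and 2 lower, with a median of -1.01. The Bax inhibitor-1 gene OS02T0125300, whose product in the ER membrane restrains cell death, had 0.0197 at 42 °C and 0.0205 at 22 °C. A pair of genes entered by locus. OS05T0411300, described as similar to a DNA binding protein, had 0.0126 at 42 °C and 0.0549 at 22 °C, and OS07T0471000, described by a serine/threonine protein kinase domain, had 0.00215 at 42 °C and 0.00840 at 22 °C. These were 4.35-fold and 3.91-fold lower. The remaining gene, OS03T0795800, with a transcript described by a BAX inhibitor motif, had 0.0201 at 42 °C and 0.00459 at 22 °C, 4.38-fold higher, and the bZIP factor was higher too.

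Entry into the ER, by the signal recognition particle (SRP), which brings ribosomes to the ER, the Sec61 channel and the signal peptidase, had 33 genes, 31 of them with a ratio. Of these 10 were called higher and 5 lower, with a median of 0.31, against 16.1% and 21.6% of all genes. The 10 include a chloroplast SRP54 (OS11T0153700) and a signal peptidase I (OS02T0722800), and without genes of other kinds 8 were called higher and 5 lower of 27. The SRP19 gene OS06T0342100 had 0.137 at 42 °C and 0.0303 at 22 °C, a 4.51-fold higher score. The SRP receptor alpha gene OS08T0480100 had 0.104 at 42 °C and 0.0422 at 22 °C, and the translocon-associated beta gene OS01T0102700 had 0.0735 at 42 °C and 0.0300 at 22 °C, 2.47-fold and 2.45-fold higher. A gene with an SRP54 G-domain, OS10T0214400, had 0.0996 at 42 °C and 0.241 at 22 °C, 2.42-fold lower.

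N-glycosylation, which attaches the sugars that calnexin and calreticulin bind, had 6 genes. The gene without a ratio, OS04T0693000, with a transcript described as similar to ribophorin I, was listed at 0 at 42 °C and at 0.00350 at 22 °C. Of the 5 with a ratio, 1 was called higher and 0 lower, with a median of 0.47. The called gene, OS03T0565100 of the OST3/OST6 family, had 0.0843 at 42 °C and 0.0221 at 22 °C. ER-associated degradation, which sends misfolded proteins to the proteasome, had 5 genes, 1 called higher and 0 lower, with a median of 0.45 that was 0.09 without a gene 1 of whose transcripts is described as a bromodomain protein. The called gene, OS03T0852200, described by a Der1-like domain, had 0.00624 at 42 °C and 0.000644 at 22 °C, both low scores. The Derlin-1 gene OS05T0187800 had 0.0285 at 42 °C and 0.0343 at 22 °C.

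Retention in the ER and export in COPII vesicles had 17 genes, 16 with a ratio. Of these 1 was called higher and 4 lower, against 16.1% and 21.6% of all genes, with a median of 0.01. The emp24/p24 cargo receptor gene OS03T0744800 had 0.0621 at 42 °C and 0.151 at 22 °C, 2.42-fold lower. No list as a whole was tested against other genes, and with 5 or fewer genes a count says little.

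**Figure D4:**
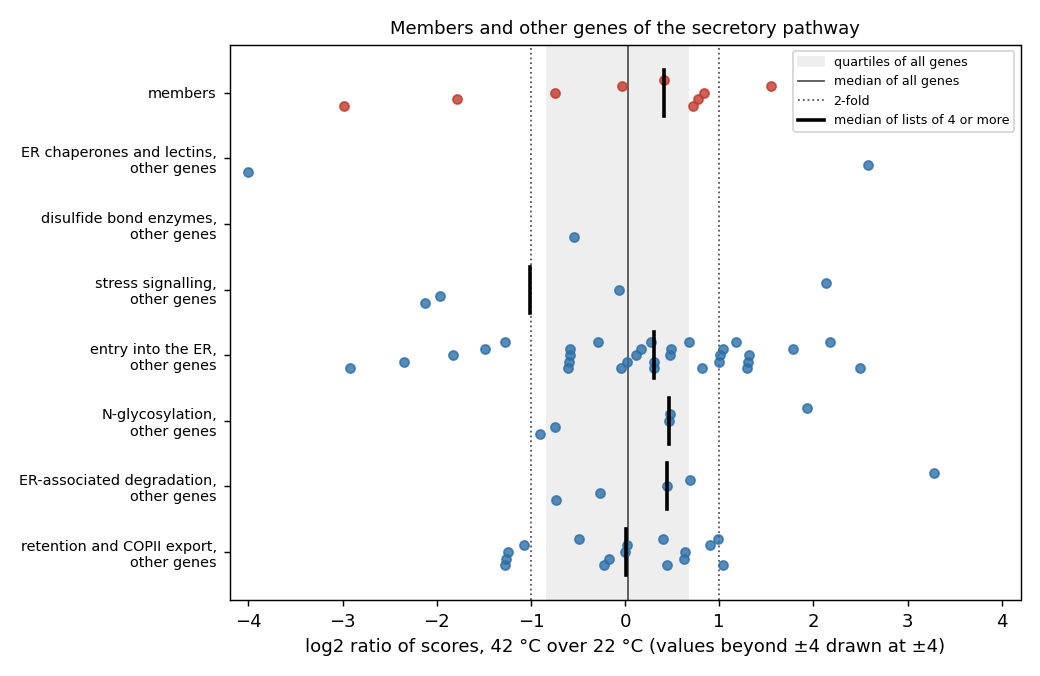
Log2 ratio of scores, 42 °C over 22 °C, for the 9 members (red) and for the other genes of 7 secretory pathway lists (blue), 1 point per gene with small vertical offsets for legibility, with the median of lists of 4 or more genes as a bar and the quartiles of all genes shaded. A calreticulin-3 gene beyond -4 is drawn at -4; points of the larger lists lie on both sides of 0, with medians of 0.41 for the members, 0.31 for entry and 0.01 for retention and export.

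Both the lumenal binding protein and the bZIP factor belong to wider families. Of the other genes with HSP70 in their descriptions, 14 had a ratio, of which 12 were lower at 42 °C, 7 of them at least 2-fold, with a median of -0.97, and the lumenal binding protein had the third highest ratio of the 15. Of the other bZIP genes by description, 16 had a ratio, of which 0 were called in either direction, with a median of 0.05, and OS06T0622700 had the third highest ratio of the 17. The words miss any bZIP gene described otherwise. OS05T0411300 of the stress signalling list, described only as similar to a DNA binding protein and 4.35-fold lower, was not counted here. In the HSP70 list, 2 genes were called higher. For both lists, the shares over all genes were 16.1% called higher and 21.6% lower. These families were chosen with the scores known, and the ranks are descriptions.

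With scores at only 2 temperatures, likeness of pattern says little. The genes nearest to the lumenal binding protein, by distance between log2 scores at both temperatures, were OS05T0168300 (haloacid dehalogenase-like hydrolase, distance 0.04), OS04T0321700 (serine carboxypeptidase I, 0.05) and OS03T0666500 (Ras-related protein RHA1, 0.06). Nearest to the bZIP factor were OS05T0186300 (NADP-malic enzyme, 0.01), OS01T0644000 (twin-arginine translocation signal domain, 0.02) and OS02T0117600 (FKBP-type prolyl isomerase, 0.04).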

How the data were processed

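Ribosome footprints of rice shoots were sequenced, with 2 libraries at 42 °C and 2 at 22 °C. The authors' deposited table holds a score per transcript and temperature, with a further column for their difference, per the file headers. Cutadapt and Bowtie2 are named in the submitters' processing notes; for the genome build, the annotation and the formula of the score, the sources used here give nothing. The deposited difference equalled the score at 42 °C minus that at 22 °C within 1e-05 in all 14122 transcripts.

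Scores were averaged over the transcripts of a locus. The log2 ratio of 42 °C over 22 °C was taken where both were above 0, and genes were called at 2-fold. The arithmetic of ratios and calls was checked on simulated data with known fold changes and no noise. That check does not bear on how reliable the calls are. Named were all 9 members and, per pathway list, up to 3 other genes in each direction past 2-fold whose mean score reached 0.05, and the 3 genes nearest to 2 members; the remaining names were picked with scores in view. Members and lists were chosen with earlier results of these data known. Alternatives changed the threshold, the transcripts, centring, low scores and the scale of the score. Sequences and coordinates were not used here, since 0 of the 9 loci matched the RefSeq gene table. Python 3.11.15, numpy 2.4.6, pandas 2.3.3 and matplotlib 3.10.9 were used.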

Additional observations from a re-analysis of the deposited data

How the results depend on the processing

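Under 8 alternatives that change the values, the 9 genes gave 69 ratios, of which 63 kept their direction and their side of 2-fold. The exceptions were these. The calreticulin OS07T0246200 turned to 0.17 with the lowest-numbered and with the highest-scored transcript, and to -1.01 when ratios were centred on genes whose mean reached 0.2. The lumenal binding protein reached 1.14 with its lowest-numbered transcript, which gave 2 members at least 2-fold higher, against 16.8% of all genes. With 0.1 added to every score, which shrinks ratios of low scores by construction, calnexin had -0.63 and the PDI gene OS03T0287900 had -0.26. That left 1 member at least 2-fold higher and 0 lower, against 2.62% and 2.82% of all genes. The members' median was then 0.28, against 0.01 over all genes. With only genes whose mean reached 0.05, 6 members were left, and both genes called lower dropped out by construction. Of the 6, 1 was at least 2-fold higher and 0 lower, against 13.9% and 14.4% of all genes with such a mean. The median of the 6 was 0.75, against 0.15 over those genes. With ratios centred on genes whose mean reached 0.2, a shift of 0.27, the members' median was 0.14, against -0.24 over all genes. Then 1 member was at least 2-fold higher and 3 lower, against 11.6% and 27.1% of all genes. A threshold of 1.5-fold gave 4 members higher and 3 lower, and one of 3-fold gave 0 higher and 2 lower. The shares of all genes at these thresholds were not computed, so these counts cannot be set against them. Scores read as log2(1 + ratio) changed no call. The alternative without genes of other kinds was added after the data were seen.

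No paired analysis was possible because the table holds 1 score per temperature and no value per replicate. Leaving out a replicate was not run for the same reason. Low scores limit the calnexin and OS03T0287900 ratios most, since the depth behind scores under 0.01 is unknown. Related genes can share reads, whose assignment the sources used here do not describe.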

Other observations

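Prolyl isomerases, which turn peptide bonds at proline and so speed folding in every compartment, are a further class of folding enzymes. By words chosen after the scores were seen, 32 genes are described as cyclophilins, FKBP or other prolyl isomerases, of which 30 had a ratio. Of these 18 were higher and 12 lower at 42 °C, with a median log2 ratio of 0.21. Of the 30, 6 were called higher and 6 lower, where the shares over all genes were 16.1% and 21.6%. An FKBP-type gene, OS08T0541400, had 0.424 at 42 °C and 0.123 at 22 °C, a 3.43-fold higher score. Cyclophilin 1, OS09T0571400, had 1.10 at 42 °C and 0.633 at 22 °C, higher than any ER folding gene described here at either temperature. The prolyl isomerase H gene OS03T0811600 had 0.0562 at 42 °C and 0.151 at 22 °C. A larger fall was that of OS06T0663800, described as similar to a chloroplast FKBP-type isomerase. It had 0.0320 at 42 °C and 0.271 at 22 °C, 8.45-fold lower.

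Enzymes that trim the sugars of glycoproteins set how long calnexin and calreticulin hold them. Words for such enzymes, chosen after the scores were seen, found 3 genes, all with lower scores at 42 °C. The descriptions do not place all of them in the ER or show that each is a trimming enzyme. OS06T0644800, with transcripts described by a glucosidase II beta subunit-like domain and as similar to OS-9, a lectin of ER-associated degradation, had 0.00108 at 42 °C and 0.0123 at 22 °C. OS04T0606400, a mannosyl-oligosaccharide alpha-mannosidase, had 0.000772 at 42 °C and 0.00471 at 22 °C, and the alpha-mannosidase OS11T0525600 had 0.0249 at 42 °C and 0.0489 at 22 °C. All 3 scored low at both temperatures.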
